A study of Mus musculus with 10 samples.

Results

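The comparison described here sets the telencephalon of mouse embryos with the C1559F missense allele of Polr1a against that of wild-type embryos from the same set of samples, here called the missense set. Its members are the 6 samples, of 10 in the series, whose titles begin with Polr_2138: 3 of the missense genotype and 3 wild type, here called missense 1 to 3 and wild type 1 to 3 in the order in which they were deposited. The other 4 samples, whose titles begin with Polr_2048, form the null set and are 2 with a null allele of Polr1a and 2 wild types. Total RNA of the telencephalon, taken on embryonic day 12, was sequenced in every sample. The labels name no strain, sex, litter or zygosity, and they do not say what the title numbers stand for, so the p-values below measure the spread between these samples.

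The product of Polr1a is the catalytic core subunit of RNA polymerase I, which transcribes the ribosomal RNA genes in the nucleolus. When ribosome assembly is disturbed, ribosomal proteins that are not built into ribosomes can bind Mdm2, the ubiquitin ligase that keeps p53 low, and p53 then activates genes of cell-cycle arrest and of apoptosis. The telencephalon at this stage holds dividing progenitors and newborn neurons of the future cortex and basal ganglia, with the cortical hem, a source of Wnt and Bmp signals, at its dorsal midline.

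The values are the deposited log2 levels, scaled to a common total per sample, for 14796 named genes, and every difference below is missense minus wild type on that log2 scale unless a linear scale is named. Summed over genes, the linear values reached 1000453 to 1000891 in each sample, so the sequencing depth behind a value is unknown. The tissue label was checked against 9 genes of telencephalic identity, all measured. Emx1, a homeobox gene of the dorsal telencephalon named here after its values were seen, stood at 5.90, 5.84 and 5.76 in wild types 1 to 3 and at 5.85, 5.45 and 5.74 in missense 1 to 3, with overlapping groups. By the level of 4 Y-linked genes, wild types 1 and 3 and missense 3 were male and the other samples were not. Missense 3 stood somewhat apart, with a mean correlation of 0.947 with the other 5 samples, and wild type 2 followed at 0.950, against 0.953 to 0.959 for the rest.

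The mutated gene itself was measured first. Polr1a, on chromosome 6, had levels of 5.62, 5.51 and 5.64 in wild type and of 5.09, 5.66 and 5.79 in missense. Missense 1 lay below all wild types and the other missense samples lay above them. The means differed by -0.08 (limma SE 0.16, adjusted p = 0.964), and an exact 2-sided permutation test gave p = 1, where 3 samples against 3 can reach 0.1 at best. Without missense 1 the difference was 0.13. A missense allele need not alter the RNA level, so this measurement does not check the genotype labels.

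Eda2r, an X-linked gene known as a p53 target, whose product is a cell-surface receptor of the tumour necrosis factor type, rose in the missense samples. Its levels were 1.71, 1.59 and 0.50 in wild types 1 to 3 and 4.01, 3.83 and 3.86 in missense 1 to 3. Every missense sample lay more than 2 log2 units above every wild type. The difference was 2.63 (SE 0.34, n = 3 against 3), a fold of 6.20, with a limma adjusted p of 0.0499. Over the whole table of 14796 genes, limma called 3 at an adjusted p under 0.05 (0.0203%): Eda2r and the gene model Gm3608 rose (0.0135%) and Rpl34 fell (0.00676%). Without adjustment 819 genes had p under 0.05 (5.54%), 474 of them higher (3.20%) and 345 lower (2.33%). After each sample was centred on its own median, that split was 394 higher and 413 lower. Eda2r lies close to the threshold: its adjusted p was 0.05 or more in 14 of the 21 other limma fits that held it. It was 0.092 in limma with the 6 samples of the missense set alone and 0.156 with sex as a covariate. The others include the fits without missense 1, 2 or 3 (0.263, 0.191 and 0.346), wild type 1 or 3 (0.0763 and 0.0659) or either wild type of the null set (0.109 and 0.105).

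Other p53 targets of arrest had higher values in the same samples without passing the threshold. Ccng1, which encodes cyclin G and is a p53 target in many tissues, stood at 5.46, 5.79 and 5.36 in wild type and at 6.54, 6.51 and 6.48 in missense. Its difference was 0.97 (SE 0.13), a fold of 1.96, with a limma adjusted p of 0.0608. Cdkn1a, the inhibitor of cyclin-dependent kinases known as p21, stood at 4.13, 3.62 and 4.21 in wild type and at 5.0, 4.90 and 5.08 in missense. For both genes the 3 missense values were within 0.2 of each other and above all wild types. The difference of Cdkn1a was 1.0 (SE 0.22, limma adjusted p = 0.884). Ccng1 passed in 6 of its 22 other limma fits, including those without wild type 2 (adjusted p = 0.00919), null 1 (0.0470) or null 2 (0.0432).

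The promoters of Ccng1 and Cdkn1a are shown because each holds a match to the p53 half-site, the 10-base unit of the p53 binding site, here in capitals. They are RefSeq promoters of build GRCm38.p6, from 250 bases before to 50 bases after the annotated start, each read 5′ to 3′ on the strand of its gene: chr11:40755237-40755536 on the minus strand for Ccng1 and chr17:29090729-29091028 on the plus strand for Cdkn1a.
Ccng1: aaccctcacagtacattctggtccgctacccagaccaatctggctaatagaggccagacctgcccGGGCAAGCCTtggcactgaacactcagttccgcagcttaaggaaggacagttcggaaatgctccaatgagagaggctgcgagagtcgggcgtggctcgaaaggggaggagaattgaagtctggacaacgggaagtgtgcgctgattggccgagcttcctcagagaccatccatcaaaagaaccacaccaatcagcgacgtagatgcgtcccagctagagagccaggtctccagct
Cdkn1a: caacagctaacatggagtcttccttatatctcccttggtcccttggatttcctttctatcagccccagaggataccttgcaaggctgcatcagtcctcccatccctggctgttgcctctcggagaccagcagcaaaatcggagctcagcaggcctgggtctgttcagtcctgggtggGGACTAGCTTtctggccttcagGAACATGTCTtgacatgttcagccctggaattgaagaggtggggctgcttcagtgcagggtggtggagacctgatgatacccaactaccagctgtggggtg
In Ccng1 the match begins at -185 from the start, and in Cdkn1a matches begin at -73 and -51. Such a match was present in 906 of the 10847 tested genes with a promoter in the table (8.35%) when both strands were searched. It was present in 14 of 29 arrest genes with a promoter (48.3%) and in 3 of 17 apoptosis genes (17.6%). The listed promoter of Eda2r had no match in this window. Over both lists, the median difference was 0.08 in 16 genes with a match and 0.12 in 29 without. With a match 11 were higher and 5 lay wholly above the wild types. Without a match these counts were 19 and 8. At an unadjusted p under 0.05 in limma, 4 genes with a match and 6 without were higher. Whether a match goes with a larger difference was not tested. A match describes the letters of these windows only.

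**Figure D1:**
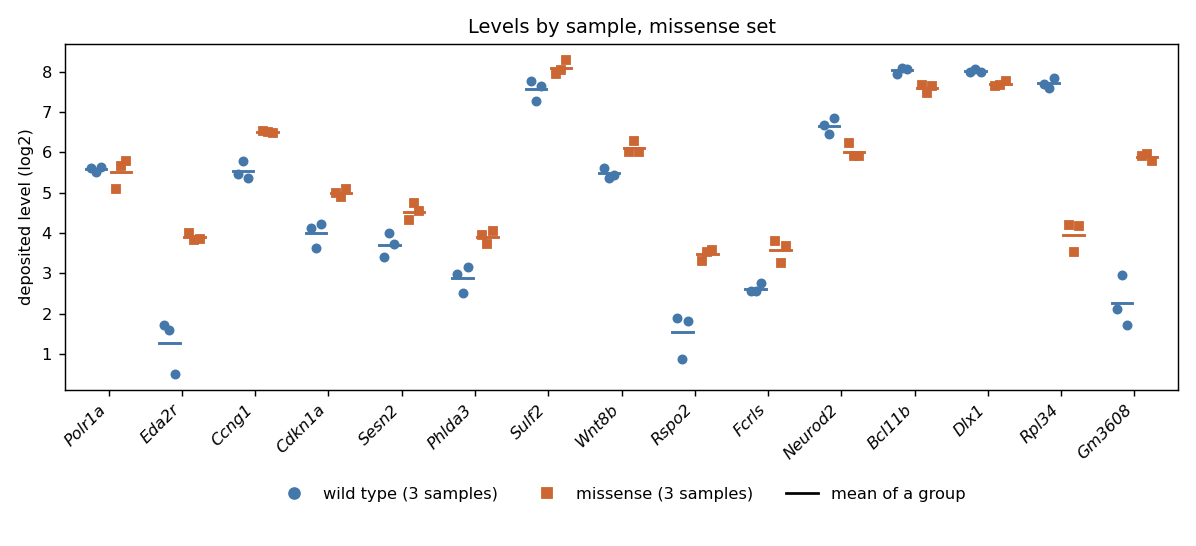
Deposited log2 level (vertical axis) of 15 genes in the 3 wild-type samples (blue circles) and 3 missense samples (orange squares) of the missense set, with bars at the group means. In Eda2r, Ccng1 and Cdkn1a all missense samples lie above all wild types, in Rpl34 and Dlx1 all lie below, and in Polr1a the groups overlap.

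Across the list of p53 targets of arrest and feedback, 36 of 38 genes were measured, with a median difference of 0.12 against 0.02 over all genes tested. Of these, 25 were higher and 11 lower, against 54.0% of all genes that were higher. There were 9 higher and 0 lower members at an unadjusted p under 0.05 in limma, and in 12 the missense samples all lay above the wild types, with 0 the other way. Over all genes, 3.20% were higher at that p, 6.02% lay wholly above and 4.89% wholly below. Phlda3, which encodes an inhibitor of Akt, had levels of 2.99, 2.50 and 3.17 in wild type and of 3.96, 3.72 and 4.05 in missense, a difference of 1.02 (SE 0.25). Sesn2, a stress-induced regulator of mTORC1, had 3.39, 4.01 and 3.74 against 4.31, 4.73 and 4.55, a difference of 0.82 (SE 0.19). In both genes the groups did not overlap. Sulf2, which encodes an extracellular sulfatase, differed by 0.53 (SE 0.13), and Polk, which encodes a translesion DNA polymerase and was named after its values were seen, by 0.58 (SE 0.17). The limma adjusted p of these 4 genes was 0.884. Mdm2, the feedback inhibitor of p53, differed by 0.06 (SE 0.11) and Trp53 itself by 0.06 (SE 0.10). Mdm2 was named after its values were seen, and its sign turned without wild type 3 or without missense 2 (-0.01 each).

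In the list of p53-linked apoptosis genes, 23 of 24 were measured, with a median of 0.13 and 17 higher. The median was 0.05 without missense 2, 0.08 without wild type 3 or with sample weights, and 0.07 among the members above the level filter. There were 5 higher and 0 lower at that p in limma, and 6 lay wholly above the wild types, against 3.20% and 6.02% of all genes. Aside from Eda2r, Apaf1, the scaffold of the apoptosome, stood at 6.12, 6.16 and 6.24 in wild type and at 6.42, 6.40 and 6.51 in missense, a difference of 0.27 (SE 0.09). Aen, which encodes an apoptosis-enhancing nuclease, differed by 0.40 (SE 0.16), and the groups of both genes did not overlap. Trp63, a p53 relative that surface epithelium expresses, differed by 0.99 (SE 0.38) with overlapping groups, and Perp, also an epithelial gene, by 0.54 (SE 0.25). The epithelial markers that moved with missense 3 are given below, and their part in the values of Trp63 and Perp was not tested. Over both lists, each gene counted once, 57 genes had a median of 0.12, with 40 higher and 17 wholly above the wild types. Without missense 3 the arrest list had 7 members higher at an unadjusted p under 0.05 in limma and the apoptosis list 3, and without wild type 2 they again had 7 and 3. In that last fit 1 apoptosis gene was lower at that p.

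**Figure D2:**
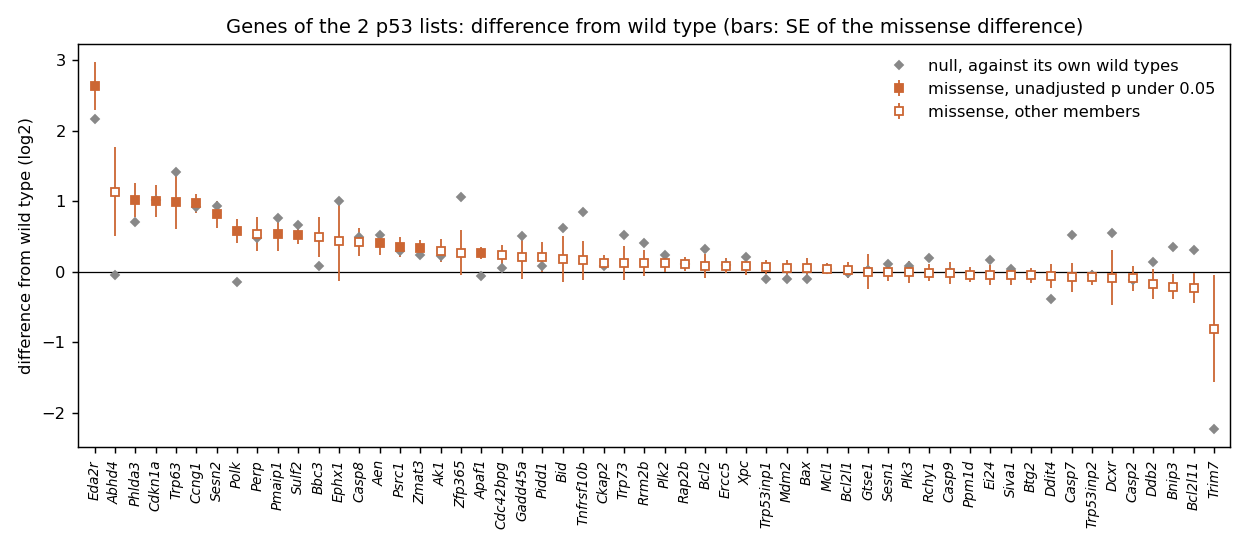
Difference from wild type (log2, vertical axis) of 56 genes of both p53 lists in the missense samples (orange squares, filled at an unadjusted p under 0.05, bars of 1 SE) and in the null samples against their own wild types (grey diamonds). Eda2r has the largest missense difference (2.63), and 39 of the 56 genes lie above 0.

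Rpl34, which encodes a protein of the large ribosomal subunit and lies on chromosome 3, fell in the missense samples. Its levels were 7.71, 7.60 and 7.86 in wild type and 4.19, 3.53 and 4.16 in missense, a fall of 3.76 on the log2 scale, or a fold of 0.0738 (SE 0.19, limma adjusted p = 9.48e-06). It passed in all 21 other fits that held it. Its processed copy Rpl34-ps1, named after its values were seen, stood at 5.91, 5.83 and 5.91 in wild type and at 7.19, 6.62 and 7.01 in missense. The groups of both did not overlap, and they lay in opposite order. The copy's difference of 1.06 has an SE of 1.61 (limma adjusted p = 0.960), which takes in the spread of the null set, where Rpl34-ps1 stood at -3.16 and -1.61 in the wild types and at -3.16 and 5.86 in the null samples. On the linear scale the mean of Rpl34 went from 211 to 15.9 and that of the copy from 59.0 to 124, so the copy's share of their sum went from 21.9% to 88.7%. The log2 level of the sum was 8.08 ± 0.11 (SD, n = 3) in wild type and 7.11 ± 0.30 (SD, n = 3) in missense, a difference of -0.97. Rpl34-ps1 lies on chromosome 6, with 12 measured genes between it and Polr1a, of 677 measured on that chromosome.

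How alike gene and copy are is shown by a stretch of the coding sequence, taken from GENCODE vM21 transcripts, with the differing bases in capitals. For Rpl34 it runs from base 43 to base 132 of the coding sequence, and for Rps13, which is described below, from base 340 to base 429.
Rpl34: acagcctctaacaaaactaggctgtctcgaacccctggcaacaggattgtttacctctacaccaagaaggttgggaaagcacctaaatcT
Rpl34-ps1: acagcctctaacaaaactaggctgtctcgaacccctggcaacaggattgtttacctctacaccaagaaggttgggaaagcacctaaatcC
Rps13: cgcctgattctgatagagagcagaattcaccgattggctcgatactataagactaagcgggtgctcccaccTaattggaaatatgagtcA
Rps13-ps1: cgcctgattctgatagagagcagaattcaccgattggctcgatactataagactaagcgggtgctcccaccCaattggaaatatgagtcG
Over the whole coding sequence Rpl34 and its copy differ at 2 of 354 bases (99.4% identical), and Rps13 and its copy at 2 of 456 (99.6% identical). A read from most of such a sequence fits both, and the sources used here do not say how the authors' counting placed these reads. The values of these genes and of their copies are therefore uncertain one by one.

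Gm3608, listed by GENCODE as a pseudogene, rose by 3.61 (SE 0.27, limma adjusted p = 0.000343), a fold of 12.2. Its levels were 2.11, 2.97 and 1.72 in wild type and 5.90, 5.95 and 5.78 in missense. Of the stretches of 31 bases in its transcripts, 89.0% also occur in Capza1, the gene of an actin-capping protein on chromosome 3, against a median of 0.358% shared with any other gene over all genes. Capza1, named after its values were seen, was lower, at 7.76, 7.89 and 7.84 in wild type and 7.30, 7.31 and 7.36 in missense (difference -0.50, SE 0.25, limma adjusted p = 0.902). On the linear scale Gm3608 gained 53.7, and the difference of Capza1 was -67.3. The log2 level of their sum was 7.86 ± 0.08 (SD, n = 3) in wild type and 7.78 ± 0.01 (SD, n = 3) in missense, a difference of -0.09. Gm3608 also differed by -4.07 between the wild types of the missense set and those of the null set, and it missed the threshold when all wild types formed 1 group (difference 1.99, limma adjusted p = 0.716).

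Rps13, a gene of the small subunit, differed the other way. Its levels were 6.99, 7.06 and 7.02 in wild type and 8.05, 7.77 and 7.8 in missense, 0.85 higher (SE 0.27, limma adjusted p = 0.884). Its copy Rps13-ps1 on chromosome 8 stood at 7.49, 7.45 and 7.48 in wild type and at -0.88, 0.05 and -3.16 in missense, the last being the floor of the table. The copy held 57.7% of their linear sum in wild type and 0.243% in missense, while the log2 level of the sum went from 8.27 to 7.88. A second copy, Rps13-ps2, was at the floor in all wild types and in missense 1 and at 3.98 and 4.66 in missense 2 and 3, and with it included the sum differed by -0.31. The difference of Rps13-ps1 was -8.80 (SE 1.74, limma adjusted p = 0.626). Samples of the null set also parted in this way: Rps13 and Rps13-ps1 stood at 6.86 and 7.39 in null 1 and at 8.28 and -1.91 in null 2, against 7.21 and 7.72 and 6.89 and 7.31 in the wild types of that set. The split therefore also varied between samples of 1 genotype. With the 6 samples of the missense set alone, both passed in limma (adjusted p = 0.0320 for Rps13 and 0.00409 for Rps13-ps1). Eda2r and Ccng1 share 0% and 0.0855% of their 31-base stretches with other genes. By the same measure, over whole transcripts, Rpl34 shares 10.4% and Rps13 22.5%. Rpl34-ps1 shares 90.1% of its stretches with Gm10154, which is not analysed here and is not part of the sum of Rpl34 and its copy.

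**Figure D3:**
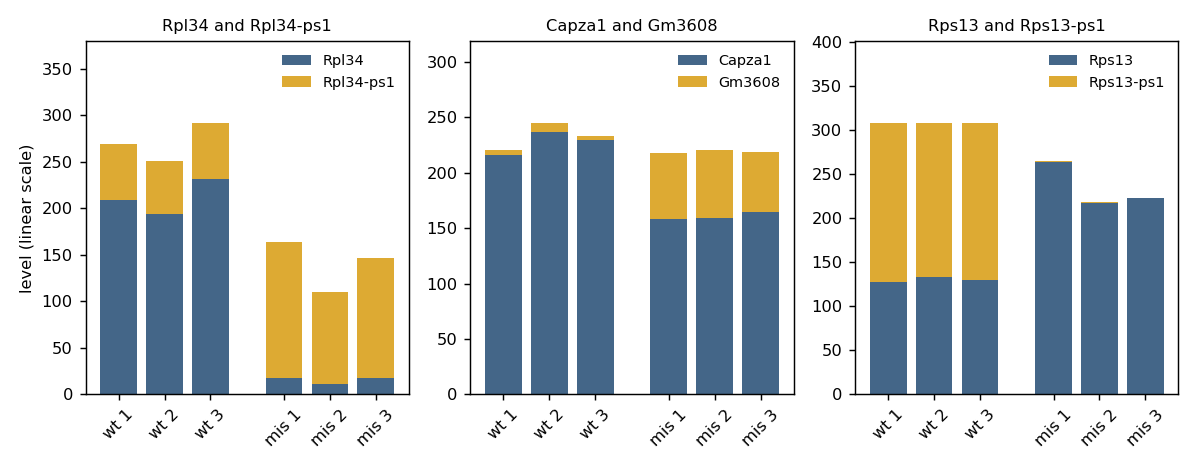
Level on the linear scale (vertical axis, from 0) of 3 genes (blue) stacked with a near-identical copy (yellow) in each sample of the missense set. The split between gene and copy differs between wild type and missense in all 3 panels, while the summed height of Capza1 and Gm3608 is nearly level.

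Most ribosomal protein genes were slightly lower. Of 46 large-subunit genes 39 were lower and 7 higher, with a median of -0.15, against 46.0% of all genes that were lower. At an unadjusted p under 0.05, 5 were lower and 0 higher in limma, and 10 lay wholly below the wild types, Rpl34 included. Of all genes, 2.33% were lower and 3.20% higher at that p, and 4.89% lay wholly below. Rpl10a, at 8.77, 8.84 and 8.71 in wild type and 8.60, 8.47 and 8.32 in missense, differed by -0.31 (SE 0.10), Rpl31 by -0.70 (SE 0.23) and Rpl13a by -0.38 (SE 0.15), with groups that did not overlap. Rpl10a and Rpl31 also share stretches with pseudogenes: summed with them the differences were -0.14 and -0.40. Rpl13a shares 28.3% of its 31-base stretches with other genes, most of them with Gm45713, which is not analysed here, so its value is uncertain as well. Of 31 small-subunit genes 25 were lower, with a median of -0.11, and at an unadjusted p under 0.05 there were 2 higher, Rps13 and Rps15a (0.60, SE 0.20), and 0 lower. The mean over the large-subunit genes was -0.11, 0.07 and 0.03 in wild types 1 to 3, relative to their own mean, and -0.09, -0.34 and -0.20 in missense 1 to 3, so missense 1 lay within the wild-type range. Without Rpl34, a choice made after seeing the data, 38 of 45 were lower with 4 at that p, the median was again -0.15, and the means were -0.02, -0.25 and -0.13 in missense 1 to 3. For the small subunit the mean was -0.0064, 0.01 and -0.0042 in the wild types and 0.06, -0.24 and -0.12 in missense 1 to 3, so missense 1 lay above all wild types. It did so without Rps13 too (0.02). Without missense 2 the medians were -0.08 for the large and -0.05 for the small subunit, and without missense 1 that of the small subunit was -0.17. The large-subunit count at that p was 2 without missense 3 and 3 without missense 2.

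Genes of RNA polymerase I and of ribosome assembly differed little. Of 9 measured polymerase I subunits 7 were lower, with a median of -0.08 and none at an unadjusted p under 0.05 in limma. Polr1c, a subunit shared with RNA polymerase III, differed by -0.15 (SE 0.12) with all missense values below the wild types. Of 13 initiation and termination factors 7 were higher and 6 lower. Taf1b, a subunit of the promoter-binding SL1 complex, differed by -0.92 (SE 0.30, limma adjusted p = 0.884) with overlapping groups. Of 53 ribosome biogenesis factors 39 were higher, with a median of 0.05. Imp4, a component of the small-subunit processome, was at -0.28 and Nip7, which acts in pre-ribosome assembly, at 0.36. Without missense 3 the count of higher factors was 33. Among the 76 genes for mitochondrial ribosomal proteins, 49 were lower (median -0.03). An unadjusted p under 0.05 in limma was reached by 5 lower and 1 higher, against 2.33% and 3.20% of all genes.

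Genes of intermediate progenitors and newborn cortical neurons were mostly lower. Of 35 measured genes 32 were lower, with a median of -0.19. At an unadjusted p under 0.05 there were 11 lower and 0 higher in limma, against 2.33% of all genes that were lower at that p. Wholly below the wild types lay 7, against 4.89% of all genes. Neurod2, a basic helix-loop-helix factor of cortical neurons, stood at 6.67, 6.47 and 6.86 in wild type and 6.24, 5.91 and 5.92 in missense, a difference of -0.64 (SE 0.18). Bcl11b, a transcription factor of deep-layer cortical and striatal neurons, had 7.95, 8.09 and 8.08 against 7.69, 7.47 and 7.64, a difference of -0.44 (SE 0.13). In both genes the groups did not overlap, and the limma adjusted p was 0.884. Ccdc141, which encodes a protein of migrating neurons, differed by -1.62 (SE 0.37) and Insm1, a factor of basal progenitors, by -0.41 (SE 0.14). The mean over the list was -0.15, -0.22 and -0.39 in missense 1 to 3, relative to the wild-type mean, and between -0.03 and 0.03 in the wild types. On the same scale the wild types of the null set stood at -0.28 and -0.12, so wild types of different sets also differed in this list. Missense 3 lay lowest, and without it the median was -0.12 with 4 members lower at an unadjusted p under 0.05. In these bulk samples fewer cells of a type and less RNA per cell cannot be told apart, here and in the lists that follow.

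Pan-neuronal genes were lower in 33 of 38 cases, with a median of -0.11, 2 lower and 0 higher at an unadjusted p under 0.05 in limma. Of all genes, 2.33% were lower at that p. Podxl2, a sialomucin gene of neurons, stood at 7.42, 7.56 and 7.46 in wild type and 7.14, 7.15 and 7.02 in missense, a difference of -0.38 (SE 0.08), and Stmn1, which encodes a microtubule-destabilizing protein, differed by -0.19. When all wild types formed 1 group, 20 of 38 were lower and the median was -0.02, and without missense 3 it was -0.05. In the neural progenitor list 23 of 36 were lower, and the median was -0.05. Hes5, a target of Notch, had levels of 6.40, 6.20 and 5.97 in wild type and of 5.76, 5.79 and 5.83 in missense, a difference of -0.39 (SE 0.13). Nr2e1, an orphan nuclear receptor of progenitors, differed by -0.32 (SE 0.12). The groups did not overlap for either gene, and the limma adjusted p was 0.884 for each.

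Ventral genes of the ganglionic eminences, where GABAergic neurons arise, were lower in 32 of 46 cases, with a median of -0.13. Limma gave an unadjusted p under 0.05 for 8 lower and 2 higher genes, against 2.33% and 3.20% of all genes. Dlx1, a homeobox gene of GABAergic progenitors, stood at 7.99, 8.07 and 8.0 in wild type and at 7.66, 7.67 and 7.77 in missense, a difference of -0.32 (SE 0.08). Its neighbour Dlx2 had 7.0, 7.13 and 6.78 against 6.23, 6.72 and 6.41, a difference of -0.52 (SE 0.16). Sp9, a zinc-finger factor of striatal progenitors, differed by -0.48 (SE 0.13). In all 3 the groups did not overlap, and the limma adjusted p was 0.884. Lhx6 and Gad2, of the medial eminence and of GABA synthesis, differed by -0.13 (SE 0.24) and -0.25 (SE 0.12) with overlapping groups. The sign of Lhx6 turned without wild type 2 (0.13). The mean over the list was 0.02, 0.05 and -0.07 in wild types 1 to 3, relative to their own mean, and -0.12, -0.05 and -0.07 in missense 1 to 3, so wild type 3 lay among the missense samples. Without wild type 3 the median was -0.21, and it was -0.20 when all wild types formed 1 group.

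Genes of the cortical hem and of Cajal-Retzius cells, the early neurons that leave it, were higher in 33 of 39 cases, with a median of 0.13. At an unadjusted p under 0.05, 5 were higher and 0 lower in limma, and 8 lay wholly above the wild types. Of all genes, 3.20% were higher at that p and 6.02% lay wholly above. Wnt8b, a Wnt ligand of the hem and hippocampal field, stood at 5.62, 5.37 and 5.45 in wild type and 6.02, 6.29 and 6.02 in missense, a difference of 0.63 (SE 0.12, limma adjusted p = 0.546). Rspo2, a secreted agonist of Wnt signalling, had 1.90, 0.87 and 1.83 against 3.31, 3.53 and 3.59, a difference of 1.94 (SE 0.49). In both genes the groups were well apart. The Bmp ligand genes Bmp7 and Bmp6 differed by 0.45 (SE 0.15) and 0.69 (SE 0.25). The mean over the list was 0.25, 0.25 and 0.10 in missense 1 to 3 and at most 0.04 in the wild types, and without missense 3 the median was 0.17 with 6 members at an unadjusted p under 0.05. Without wild type 3 the median was 0.07. Choroid plexus genes, which border the hem, had a median of 0.27, with 17 of 23 higher, 4 of them at an unadjusted p under 0.05. Folr1, a folate receptor gene of that epithelium, differed by 1.19 (SE 0.38), from 1.68, 0.83 and 1.44 to 2.01, 3.04 and 2.47. Sulf1 differed by 0.45 (SE 0.15). Relative to the wild-type mean, the mean over the choroid plexus list was 0.30, 0.17 and 0.39 in missense 1 to 3. On that scale wild types 1 to 3 reached at most 0.13, and the wild types of the null set stood at -0.60 and -0.91. For the hem list the wild types of the null set stood at -0.17 and -0.23. Wild types of different sets thus also differed in both lists.

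Markers of microglia and macrophages, the immune cells that enter the brain from the yolk sac, were higher in 25 of 28 cases, with a median of 0.44. Limma gave an unadjusted p under 0.05 for 10 higher and 0 lower genes, and 10 lay wholly above the wild types. Over all genes, 3.20% were higher at that p and 6.02% lay wholly above. Fcrls, a gene specific to microglia, stood at 2.56, 2.55 and 2.75 in wild type and 3.80, 3.25 and 3.67 in missense, a difference of 0.95 (SE 0.21). Cx3cr1, the fractalkine receptor gene, had 3.53, 3.47 and 3.51 against 4.06, 3.96 and 4.07, a difference of 0.53 (SE 0.16). The complement genes C1qb and C1qc differed by 0.77 (SE 0.23) and 0.66 (SE 0.23). In all 4 the groups did not overlap, and the limma adjusted p was 0.884. Summed over the list on the linear scale, the wild types lay between 252 and 333 and the missense samples between 363 and 428. The mean log2 level over the list, relative to that of the wild types, was 0.088, -0.184 and 0.096 in wild types 1 to 3. It was 0.437, 0.101 and 0.541 in missense 1 to 3, so missense 2 was nearly level with wild types 1 and 3. On the same scale the wild types of the null set stood at -0.354 and -0.515, so wild types of different sets differed here too. Without missense 3 the median was 0.28 with 6 members higher at that p, without wild type 2 it was 0.29 with 6, and without both it was 0.22 with 2.

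Gpnmb, Clec7a and Ctsd were named after their values were seen and form no list. Gpnmb, a glycoprotein gene of phagocytes, stood at -0.14, -3.16 and -2.03 in wild type and 0.88, 1.38 and 2.64 in missense, and Clec7a, a receptor gene of phagocytes, at -0.66, -1.21 and -1.57 against 1.21, 0.40 and 2.10. Ctsd, which encodes the lysosomal protease cathepsin D, had 6.92, 6.68 and 6.95 against 7.22, 7.21 and 7.56, a difference of 0.48 (SE 0.12). The 3 genes had non-overlapping groups and a limma adjusted p of 0.884. Gpnmb and Clec7a were low in wild type, with Gpnmb at the floor of the table in wild type 2, so their differences are not given as folds.

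Markers of tissues outside the brain stood out in single samples. Mesenchyme, neural crest and meninges genes were higher in 37 of 39 cases, with a median of 0.34, of which 2 had an unadjusted p under 0.05 in limma. For comparison, 3.20% of all genes were higher at that p. The mean over the mesenchyme list, relative to that of the wild types, was 0.18, -0.45 and 0.27 in wild types 1 to 3 and 0.23, 0.09 and 0.83 in missense 1 to 3. Wild type 2 lay lowest and missense 3 highest, while the other 4 samples lay between. The median was 0.11 without wild type 2 and 0.13 without missense 3. Without both the median was -0.11, with 26 of 39 lower. Surface and olfactory epithelium genes were higher in 28 of 30 cases, with a median of 0.50 and 2 at an unadjusted p under 0.05, and missense 3 stood at 1.36 against 0.19 at most in missense 1 and 2. Without missense 3 their median was 0.15. Endothelial genes had a median of -0.01 (16 of 34 higher) and erythroid genes of 0.16 (16 of 24 higher), with 0 members at an unadjusted p under 0.05 in either list. The erythroid median was 0.09 without wild type 1 or wild type 3 and 0.35 without wild type 2. In the microglial, mesenchymal, epithelial, endothelial and erythroid lists 0 members were at the floor in all 6 samples. The part of these markers in the differences of other genes was not tested.

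**Figure D4:**
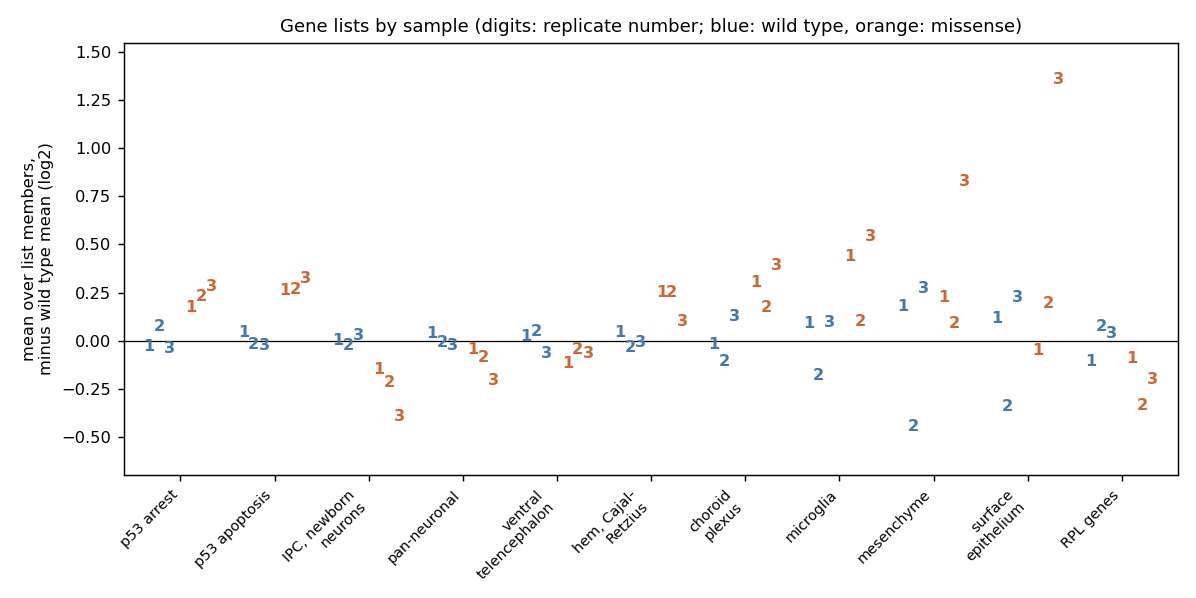
Mean log2 level over the measured members of 11 gene lists in each sample of the missense set, minus the mean of the wild types (vertical axis), with digits for the replicate number in wild type (blue) and missense (orange). All missense samples lie above all wild types for both p53 lists and for the hem, choroid plexus and microglia lists. For microglia the margin is narrow (0.101 in missense 2, 0.096 in wild type 3). All missense samples lie below all wild types for the newborn-neuron and pan-neuronal lists. For pan-neuronal genes the margin is narrow too (-0.045 in missense 1, -0.025 in wild type 3). Missense 3 stands apart for mesenchyme (0.83) and surface epithelium (1.36).

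Markers of the diencephalon, eye and midbrain, the brain regions next to the telencephalon, had a median of 0.16, with 26 of 42 higher. The median was 0.05 without wild type 3 or missense 3 and -0.02 among the members above the level filter. Limma gave an unadjusted p under 0.05 for 0 higher genes and 1 lower gene, Rlbp1, which encodes a retinaldehyde-binding protein. It stood at 4.22, 4.08 and 4.39 in wild type and 3.37, 3.10 and 3.26 in missense (-0.99, SE 0.19, limma adjusted p = 0.546), with groups well apart.

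Lists of growth and stress showed medians near that of all genes. Genes of S phase and replication had a median of 0.02, with 22 of 37 higher, and genes of G2 and mitosis of 0.01, with 20 of 34 higher and 0 at an unadjusted p under 0.05 in limma. Targets of Atf4, the effector of the integrated stress response, had a median of -0.02, with 14 of 30 higher. Sesn2, which is on that list and the p53 list, was the member with the smallest p. Heat shock and immediate early genes had a median of -0.01, with 12 of 24 higher, hypoxia and glycolysis genes of 0.04 and genes of cholesterol synthesis of -0.03. The medians were 0.08 for interferon response genes, 0.05 for genes encoded in mitochondrial DNA, 0.05 for the 5S particle and Mdm2 checkpoint, -0.04 for core subunits of RNA polymerase II and -0.01 for those of RNA polymerase III. Among 20 measured genes around Polr1a, 10 on each side in the reference gene order, 11 were higher and 9 lower, with 0 at an unadjusted p under 0.05. By chromosome, the share of genes at that p ran from 4.01% on the X to 6.79% on chromosome 3, with 5.17% of 677 on chromosome 6.

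**Figure D5:**
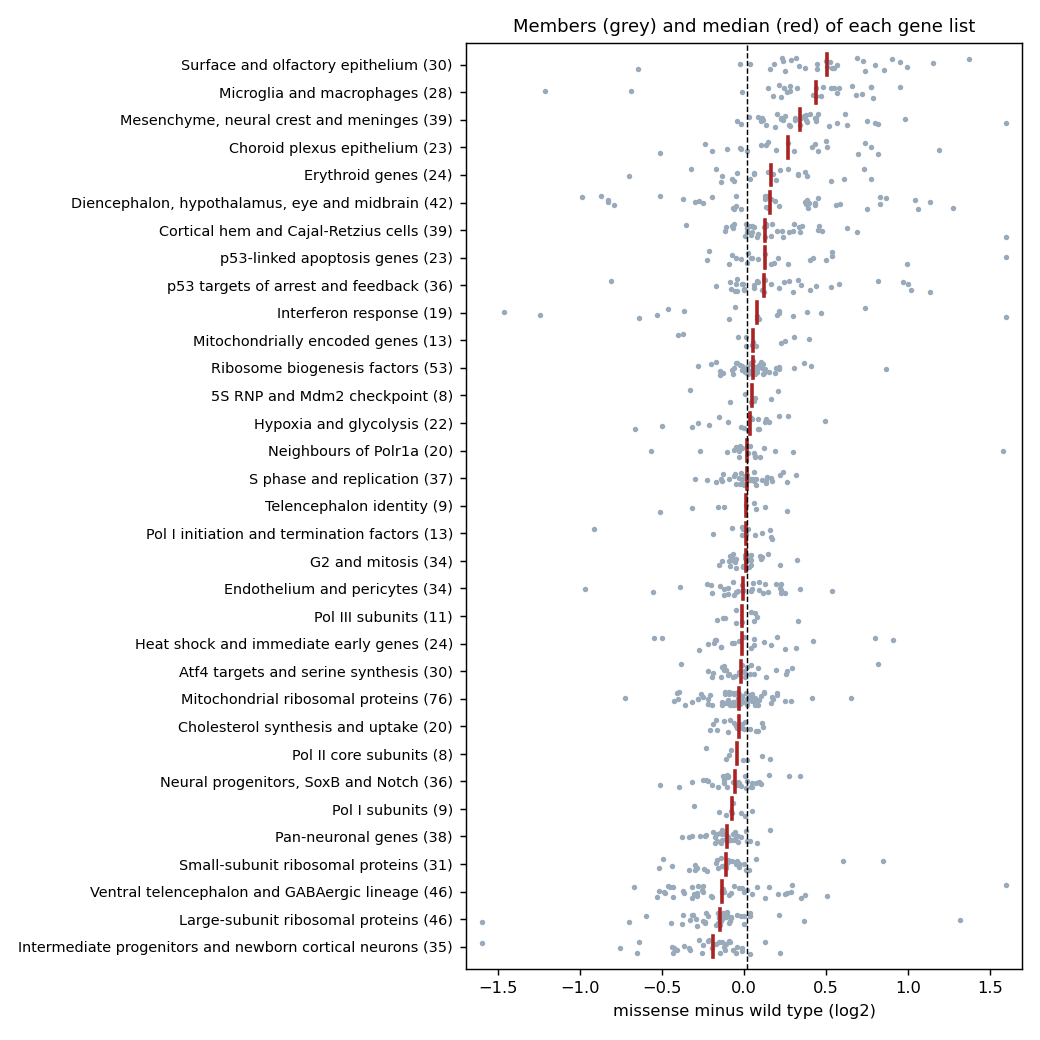
Missense minus wild type (log2, horizontal axis) of the measured members (grey points) of 33 gene lists, with the list median (red bar), the number of members in brackets and the median of all genes (dashed line, 0.02). The 7 values beyond 1.6 in either direction are drawn at the edge. Surface epithelium, microglia and mesenchyme have the highest medians and newborn cortical neurons the lowest.

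Further genes with small p-values belong to none of these lists. Among the higher ones, Dhx30, which encodes an RNA helicase of mitochondrial ribosome assembly, stood at 1.33, 2.11 and 3.28 in wild type and 4.10, 4.66 and 5.46 in missense, 2.50 higher (SE 0.47, limma adjusted p = 0.546). The groups spread widely and did not overlap. Rnf43, a ubiquitin ligase that removes Wnt receptors, was named after its values were seen and had 1.26, 0.56 and 1.06 against 3.30, 3.0 and 4.45 (2.62, SE 0.43, limma adjusted p = 0.249). Mettl16, an RNA methyltransferase gene, differed by 0.61 (SE 0.14), Gbe1, the glycogen-branching enzyme gene, by 0.78 (SE 0.18) and Vangl1, of planar cell polarity, by 1.13 (SE 0.27). Among the lower ones, Wnt7a, a Wnt ligand of cortical progenitors, had 5.42, 5.54 and 5.52 in wild type and 5.11, 5.0 and 4.82 in missense (-0.52, SE 0.13). Prkd1, a protein kinase gene, differed by -0.54 (SE 0.13), Zbtb38 by -0.92 (SE 0.24) and Fignl1, of homologous recombination, by -0.35 (SE 0.09). All of these had groups that did not overlap. The wild types of the missense set minus those of the null set gave -1.519 for Dhx30, -0.504 for Mettl16 and 0.965 for Zbtb38. These differences between wild types did not pass in limma (adjusted p of 0.547, 0.510 and 0.472). The missense values of Dhx30, Mettl16 and Zbtb38 overlapped those of the null-set wild types. In Gbe1, Vangl1, Wnt7a, Prkd1 and Fignl1 they did not.

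The null samples of the null set were compared with their own wild types in the same fit, so a test of the difference between the alleles was possible, although allele and title number cannot be told apart. In limma 2 of 14796 genes passed (0.0135%) and 611 had an unadjusted p under 0.05 (4.13%). Dlx1 was -0.32 in missense and -1.38 in null, a difference between the alleles of 1.06 (SE 0.13, adjusted p = 0.0322), and Rpl34 was -3.76 and -0.47, a difference of -3.29 (SE 0.30, adjusted p = 0.00425). The call for Dlx1 was lost in 8 of the 10 fits that left out 1 sample, all but those without wild type 1 of the null set and without wild type 2 of the missense set, with limma adjusted p-values of 0.0627 to 0.184 in those 8, while that for Rpl34 was lost in 0. Dlx1 also missed the threshold with median-centred samples (0.0566) and without a trend in the variances (0.169). Among the ventral genes, 18 of 46 were higher in the missense contrast than in the null contrast at an unadjusted p under 0.05 and 1 lower, with medians of -0.13 in missense and -0.64 in null. Lhx6 was -0.13 in missense and -2.50 in null (limma adjusted p of the difference 0.225). For the hem list, 8 of 39 were lower in the missense contrast than in the null contrast at that p and 0 higher, with medians of 0.13 and 0.52. Of the p53 arrest genes 1 of 36 differed at that p, Polk (0.58 in missense, -0.15 in null), and the apoptosis gene Apaf1 was 0.27 in missense and -0.05 in null, also at that p. Eda2r was 2.63 in missense and 2.17 in null, Ccng1 0.97 and 0.92, and Cdkn1a 1.0 and 1.02. The difference between the alleles was 0.46 (SE 0.54) for Eda2r, 0.05 (SE 0.21) for Ccng1 and -0.02 (SE 0.35) for Cdkn1a, which does not show that the alleles act alike on them. Tbc1d17 (-0.57 in missense, 0.40 in null) and Ppp1r7 (0.79 and -0.48) had opposite signs, with a limma adjusted p of the difference of 0.401 and 0.582.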

How the data were processed

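RNA of 10 telencephalon samples was measured by sequencing. The authors deposited a single table of filtered and normalized log2 values per gene and sample, on genome build GRCm39 per the submitters' processing notes, while aligner, read counter and gene models are not stated in them. The values behave as log2 CPM with a shared floor of -3.16, hold no whole-read steps, and carry no depth. An unnamed gene was left out, and a few genes are not reported here.

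A linear model with 4 groups (wild type and null of the null set, wild type and missense of the missense set) was fitted with limma 3.58.1 in R 4.3.3 (with version 1.17.8 of data.table), with variances following a trend on the mean level, 6 residual and 4.83 prior degrees of freedom, 2-sided tests and Benjamini-Hochberg adjustment over 14796 genes at 0.05. A contrast of both allele effects was taken from the same fit. In simulated data with independent normal noise, 200 of 14796 genes were changed and the rest left alike. The missense contrast recovered 11.9%, 59.7% and 84.8% of genes changed by 0.5, 1 and 2 log2 units, with 9 false calls. These shares depend on the number of changed genes, which is unknown in the real samples, so they do not give the power of this comparison.

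The comparison, the gene lists and the tests were chosen with earlier results of these data known. Lists were not tested, only counted. Named genes are Polr1a, the called genes, up to 12 per direction with the smallest p and non-overlapping groups (gene models and genes under the 25th percentile of mean level left out), up to 4 per list, up to 3 per direction of the allele difference, and up to 4 neighbours of Polr1a. Sex was read from Y-linked levels above 3. Shared stretches of 31 bases and coding sequences came from GENCODE vM21, and promoters from RefSeq (GRCm38.p6). No other coordinates are given, since the build differs. Alternatives covered the samples fitted, normalization, pseudocount, level filter, variance model, sample weights, sex and genes fitted. Counts of list members without wild type 2, missense 3 or both, and the ribosomal protein lists without Rpl34 or Rps13, were added after seeing the data. Figures used Python 3.11.15, numpy 2.4.6, pandas 2.3.3 and matplotlib 3.10.9.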

Additional observations from a re-analysis of the deposited data

Results flagged for a closer look

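Between the missense and the null allele, 2 genes differed in their response by a test of the difference in limma. Dlx1 differed by 1.06 (adjusted p = 0.0322), lower in all 3 missense samples by 0.32 on average and lower in null by 1.38 on the log2 scale. Rpl34 differed by -3.29 (adjusted p = 0.00425), with its fall in all 3 missense samples and a value of -0.47 in null. Allele and title number cannot be told apart, and Rpl34 shares its sequence with a copy whose level went the other way.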

How the results depend on the processing

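Of 110 named genes other than Polr1a recomputed under 22 alternatives, 108 kept their sign in all fits that held them. When 1 sample was left out, Polr1a ranged from -0.22 to 0.13, turning sign without missense 1, Lhx6 from -0.32 to 0.13, turning without wild type 2, and Mdm2 from -0.0083 to 0.14, turning without wild type 3 or missense 2. Lhx6 was 0.21 without wild type 2 and missense 3 together. The 3 called genes became 8 without wild type 2 and missense 3 together, and 0 in limma once gene models, pseudogenes and ribosomal protein genes were left out (752 at an unadjusted p under 0.05). Leaving out 1 sample gave 2 to 10 calls: 10 without wild type 2, and 6 without null 1 or without null 2. Rpl34 and Gm3608 passed in every fit that left out 1 sample. The 2 genes that differed between alleles became 1 after median centring, 0 without the trend (646 at an unadjusted p under 0.05 in limma), 4 with sex as a covariate, 11 without both samples, 1 without those gene classes, and 1 to 10 when 1 sample was left out. Of these 2, Dlx1 was lost in 8 of those 10 fits, all but those without wild type 1 of the null set and without wild type 2 of the missense set, and Rpl34 in 0. The unadjusted split of 474 higher and 345 lower became 411 and 414 after quantile normalization. Of 34 list medians, 17 stayed within the spread of the samples in every fit. For the mesenchyme list the median was -0.11 without both samples, and for choroid plexus it was 0.55 when all wild types formed 1 group. The causes were not tested. No paired analysis was possible because the missense and wild-type samples of the set share no number in their titles. The depth is unknown, so no limit from counting can be given, and values near the floor of -3.16 are the least certain.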
